A study of Homo sapiens with 24 samples.

Results

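The transcription factor NF-kB and genes known as its targets were followed in UCSD-AML1 and ELF-153, 2 established human lines of acute myeloid leukaemia, with and without decitabine (DAC). The group holds 38 genes chosen by symbol, of 52994 genes to which the sequenced transcripts could be assigned: 8 feedback inhibitors and members of the IkB family, 5 NF-kB subunits, 7 chemokines, 8 cytokines and TNF family ligands, 7 survival, adaptor and stress genes and 3 surface molecules. DAC, a nucleoside analogue of cytidine, is incorporated during replication and depletes the enzymes that methylate DNA, and dividing cells then lose methylation. Cells of each line were left untreated or received 100 nM DAC on 4 days in a row, renewed each day with the medium, and RNA was taken at 96 h or at 144 h. The labels call the later groups treated for 144 h, and how that harvest relates to the last dose is not stated. All 8 groups, untreated cells included, grew in RPMI with 20% fetal calf serum and 5 ng/ml GM-CSF, a myeloid growth factor. Each group holds 3 libraries, which the series describes as technical triplicates, so the p-values cover the scatter among libraries and may not cover that between independent cultures. Because the RNA is from whole cultures, fewer cells that express a gene and less RNA per cell cannot be told apart.

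NF-kB is a family of dimeric factors built from RELA, RELB, REL and the processed products of NFKB1 and NFKB2. In resting cells IkB proteins such as NFKBIA hold the dimers in the cytoplasm. Receptors for TNF, interleukin-1 and microbial products lead to the loss of the inhibitor in the canonical route, while a slower non-canonical route runs through NFKB2 and RELB. Active dimers switch on chemokines, cytokines, survival genes and also their own inhibitors, among them NFKBIA and TNFAIP3, so that the response is limited by feedback. In myeloid cells the pathway is best known for the inflammatory response of monocytes and neutrophils.

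Promoter sequence is shown for 7 members whose levels the results turn on: 2 feedback inhibitors, the 3 chemokines that rose in both lines at both harvests, the chemokine whose change differed between the lines by the test, and the subunit gene that moved in opposite directions. Each line gives the 100 bases before the annotated start, 5′ to 3′ on the gene's strand, from RefSeq on GRCh38.p14, and capitals mark matches to the 10-base NF-kB consensus or to the 9 letters GGAATTTCC on either strand.
TNFAIP3: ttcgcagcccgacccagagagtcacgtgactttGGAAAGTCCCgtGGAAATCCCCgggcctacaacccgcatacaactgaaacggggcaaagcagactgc
NFKBIA: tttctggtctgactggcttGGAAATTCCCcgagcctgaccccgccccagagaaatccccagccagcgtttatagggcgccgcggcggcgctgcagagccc
CXCL1: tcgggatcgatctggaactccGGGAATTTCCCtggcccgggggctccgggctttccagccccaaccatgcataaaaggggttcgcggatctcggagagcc
CXCL2: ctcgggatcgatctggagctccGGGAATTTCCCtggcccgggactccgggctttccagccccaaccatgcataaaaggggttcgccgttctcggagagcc
CXCL3: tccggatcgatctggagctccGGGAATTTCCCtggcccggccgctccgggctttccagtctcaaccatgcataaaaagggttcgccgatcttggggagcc
CXCL8: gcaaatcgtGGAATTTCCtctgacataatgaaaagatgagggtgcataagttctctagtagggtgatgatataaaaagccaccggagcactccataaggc
REL: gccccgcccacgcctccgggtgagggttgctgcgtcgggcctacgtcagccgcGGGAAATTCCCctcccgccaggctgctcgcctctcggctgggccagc
The windows are chr6:137867159-137867258 (plus strand) for TNFAIP3, chr14:35404750-35404849 (minus) for NFKBIA, chr4:73869293-73869392 (plus) for CXCL1, chr4:74099196-74099295 (minus) for CXCL2, chr4:74038690-74038789 (minus) for CXCL3, chr4:73740469-73740568 (plus) for CXCL8 and chr2:60881474-60881573 (plus) for REL. Counting the last base before the start as -1, the marked letters run from -67 to -46 in TNFAIP3, from -81 to -72 in NFKBIA and from -79 to -69 in CXCL1 and CXCL3. They run from -78 to -68 in CXCL2, from -91 to -83 in CXCL8 and from -47 to -37 in REL.

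In the 250 bases before the start the consensus was found in 3498 of 35116 promoters (10%) and in 21 of 50 promoters of members (42.0%), which belong to 17 of the 32 members with an entry. The 9-letter form, which overlaps the consensus, was found in 145 of all promoters (0.41%) and in 9 of the 50. The 9-letter form and the printed set were chosen after the members' promoters had been searched, since CXCL8 and ICAM1 hold no consensus match. Members without an entry are NFKBIE, RELB, CXCL16, CCL2, CSF1 and IER3. The members were listed as known NF-kB targets, so their larger shares are no independent support. Repeated entries, where present, were removed for the members and not for all promoters. These matches describe letters and were read against no binding data. Over the whole 300-base windows the CpG count, the number of sites that DNA methyltransferases can act on, was 4 for CXCL8, 22 for NFKBIA, CXCL1 and CXCL2, 24 for CXCL3, 35 for TNFAIP3 and 41 for REL, against a median of 14 over all promoters and 22 over those of members.

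Between 13.15 and 28.53 Mreads (mega-reads) per library were assigned to transcripts, and values are given as reads divided by a scaling factor per library, here called scaled reads. Because reads of shared sequence seem to be left out of the table, levels are compared for 1 gene at a time and not between genes, and CXCL1, CXCL2 and CXCL3, which are close paralogs, carry some uncertainty. Mitochondrial ribosomal RNA took from 13.1% to 63.78% of the assigned reads. Its mean share was 50.07% without and 62.85% with DAC for UCSD-AML1 at 96 h, 25.16% and 43.45% in ELF-153 at 96 h, 49.41% and 51.2% in UCSD-AML1 at 144 h, and 24.29% and 46.99% in ELF-153 at 144 h. Of the markers of myeloid leukaemia cells, CD33, CD34, KIT and PTPRC had reads in all 24 libraries, whereas MPO had reads in 4, at most 1.13 scaled reads, and the GM-CSF receptor gene CSF2RA in 1. Because reads of shared sequence seem to be left out, the lack of CSF2RA reads does not show that the gene was silent.

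Differences were tested with limma on log2(scaled reads + 1) across all genes of a harvest that reached 10 scaled reads in at least 3 of its 12 libraries, and a gene is said to have risen or fallen where its Benjamini-Hochberg adjusted p was below 0.05. Changes are log2 differences on that scale, which understates the change of low genes, each with its standard error, and a pair of values for 1 line gives 96 h and then 144 h. Of the 38 members 31 were tested at 96 h and 32 at 144 h. IL1A and CSF1 at 96 h, and IL1A, CSF1, CXCL16 and TNIP3 at 144 h, passed the filter only through DAC-treated libraries, so a rise of these genes could more readily be seen than a fall. TNF, LTB and IER3 were listed at 0 in all 24 libraries. A zero there carries little information, because 77 of the 100 protein-coding genes nearest to TNF on chromosome 6 were also listed at 0 throughout, TUBB, DDX39B and HLA-C among them, against 163 of 902 other protein-coding genes of the chromosome (18.1%). CCL2 and CCL20, chemokines for monocytes and lymphocytes, and IL6 were at or under 3 reads in every group.

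In both lines and at both harvests most tested members were higher with DAC. In UCSD-AML1 at 96 h 17 of 31 rose and 1 fell, where 20% of all 17609 genes rose and 20.1% fell. In ELF-153 at 96 h 25 of 31 rose and none fell, against 20.7% and 12.9% of all genes. At 144 h 21 of 32 rose and 1 fell in UCSD-AML1, where 20.1% of 17180 genes rose and 26.8% fell, and 26 of 32 rose and none fell in ELF-153, where the shares were 20.8% and 18.2%. Without the members that passed the filter only through treated libraries, 15 of 29 rose in UCSD-AML1 and 23 of 29 in ELF-153 at 96 h, and 18 of 28 and 23 of 28 at 144 h. The median log2 change of the tested members was 0.95 in UCSD-AML1 and 1.26 in ELF-153 at 96 h, and 0.8 and 1.66 at 144 h, while the medians over all genes were -0.04, 0.17, -0.14 and 0.11. Rises in all 4 comparisons were found for 15 members: TNFAIP3, NFKBIA, ZC3H12A, NFKB2, RELB, CXCL1, CXCL2, CXCL3, IL1A, IL1B, TNFSF9, CSF1, EBI3, BIRC3 and SQSTM1. The medians and these 15 include IL1A and CSF1, which passed the filter only through treated libraries. For NFKBIA, ZC3H12A, CXCL3, IL1B, EBI3 and BIRC3 at least 1 of these calls was lost in an alternative fit, as given below. A further 3 rose in 3 comparisons (NFKBIZ, RELA and CD83), 9 in 2 and 2 in 1, and TNIP3, NFKBIE and PLAUR were tested and rose in none.

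The scaling between libraries bears on these counts. With trimmed mean (TMM) scaling the median over all genes in UCSD-AML1 moved from -0.035 to 0.096 for the 96 h harvest and from -0.135 to 0.125 for the 144 h harvest, and the share of rises among all called genes moved from 49.8% to 58.9% and from 42.8% to 57.1%; edgeR gave 60.2% at 96 h. The members that rose and fell then numbered 20 and 0 in UCSD-AML1 and 24 and 0 in ELF-153 at 96 h, and 23 and 1 and 26 and 0 at 144 h.

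**Figure D1:**
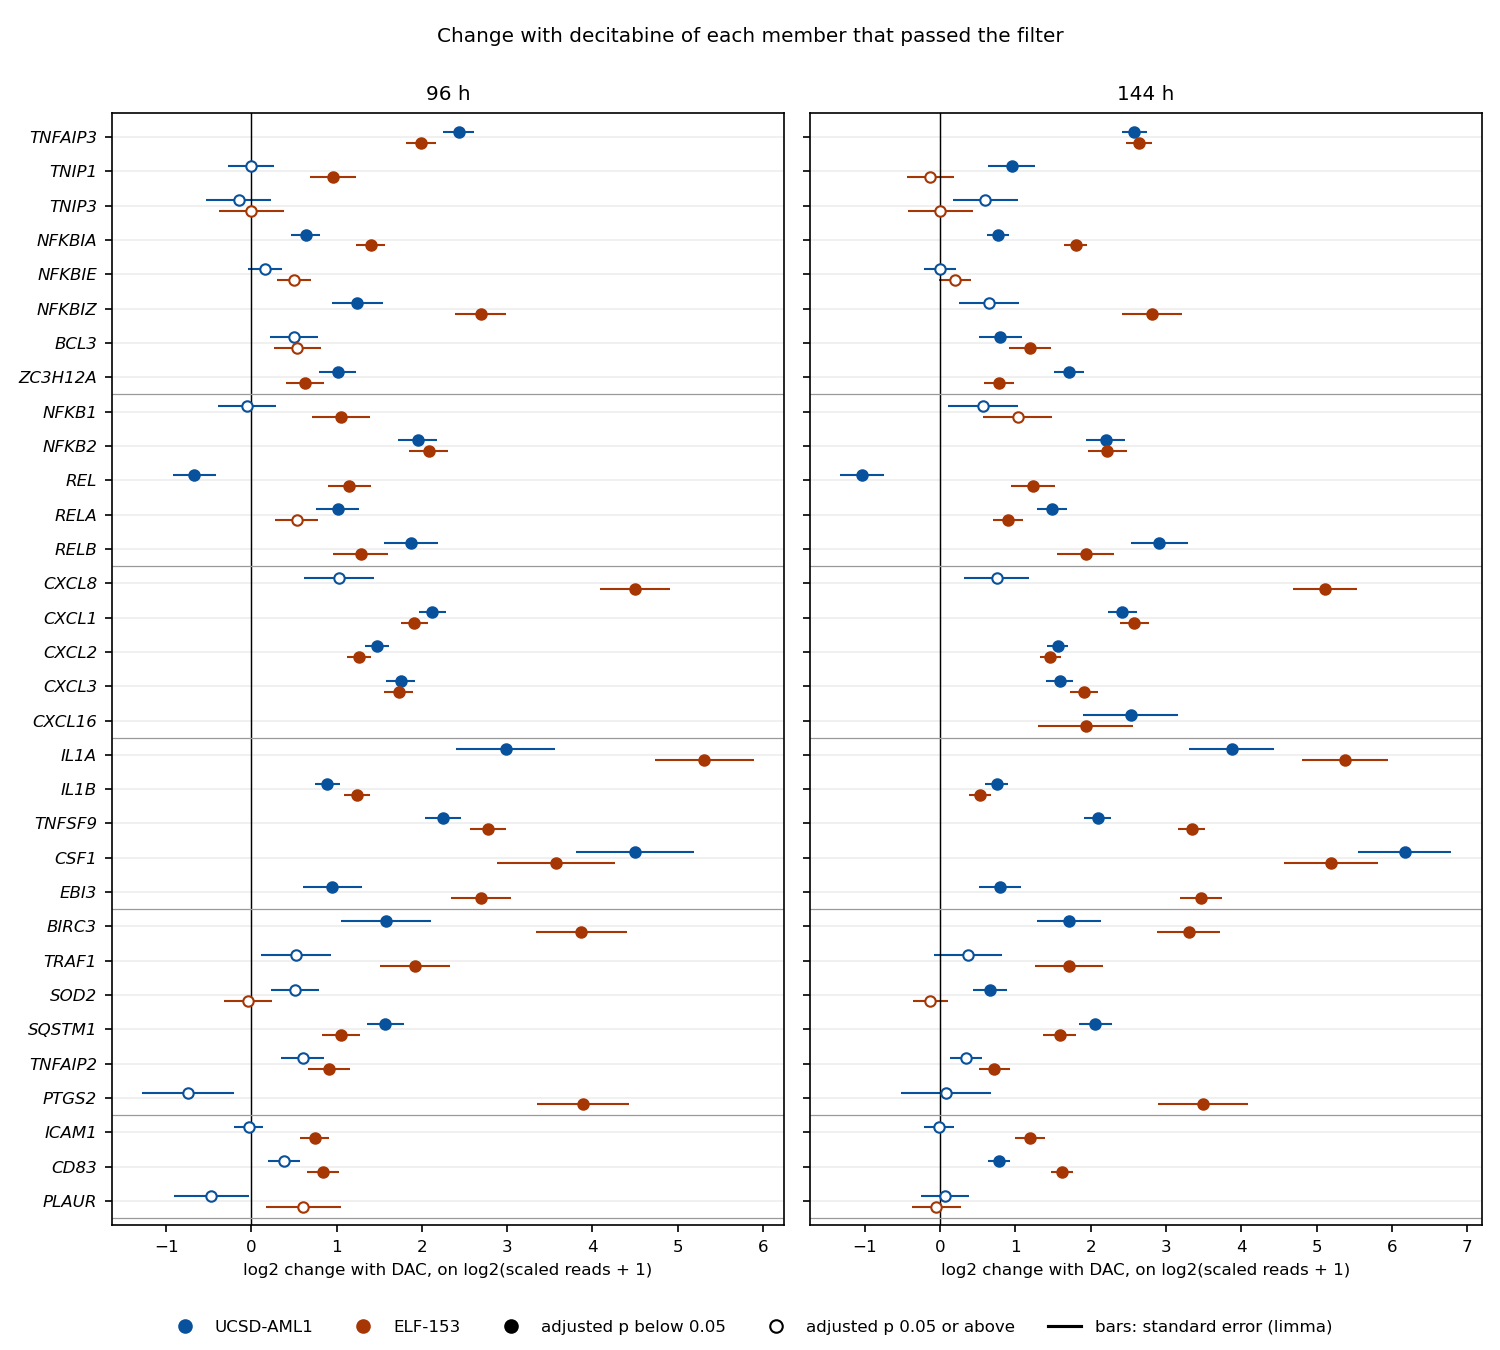
Change with DAC on the log2(scaled reads + 1) scale for each tested member at 96 h and 144 h, in UCSD-AML1 and ELF-153; points are limma estimates, bars their standard errors, and filled points have an adjusted p below 0.05. Most filled points lie to the right of 0, and REL is the 1 member with a filled point below 0, in UCSD-AML1 at both harvests.

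Of the 8 feedback inhibitors and IkB family genes 4 rose in UCSD-AML1 and 5 in ELF-153 at 96 h, and 5 in each line at 144 h. TNFAIP3 was called in all 4 comparisons. It encodes the ubiquitin-editing enzyme A20, which switches off signalling upstream of the IkB kinase. Untreated UCSD-AML1 held 426, 458 and 438 scaled reads at 96 h and 654, 602 and 904 at 144 h, against 2798, 2450 and 1966 (96 h) and 3914, 4130 and 4778 (144 h) with DAC. Untreated ELF-153 held 449, 585 and 402 at 96 h and 420, 439 and 512 at 144 h, against 1946, 1780 and 1917 (96 h) and 2714, 2945 and 2901 (144 h) with DAC. No treated library overlapped an untreated one, and the log2 change was 2.43 ± 0.18 (adjusted p = 2.53e-07) in UCSD-AML1 and 1.99 ± 0.18 (adjusted p = 1.43e-06) in ELF-153 at 96 h, and 2.58 ± 0.17 (adjusted p = 2.47e-07) and 2.64 ± 0.17 (adjusted p = 1.22e-07) at 144 h. NFKBIA encodes IkB alpha, the inhibitor that NF-kB itself induces. Its level in UCSD-AML1 was 455, 470 and 388 scaled reads at 96 h and 575, 586 and 586 at 144 h, against 592, 797 and 666 (96 h) and 967, 895 and 1130 (144 h) with DAC. ELF-153 started lower, with 111, 97.3 and 108 at 96 h and 125, 129 and 114 at 144 h, against 299, 270 and 271 (96 h) and 422, 428 and 435 (144 h) with DAC. The groups did not overlap in either line, and NFKBIA rose by 0.64 ± 0.17 (adjusted p = 0.0079) and 0.77 ± 0.15 (adjusted p = 0.00108) in UCSD-AML1 and by 1.4 ± 0.17 (adjusted p = 2.31e-05) and 1.8 ± 0.15 (adjusted p = 9.6e-07) in ELF-153 at 96 h and 144 h. Retained-intron or processed transcripts held 65.8% of the NFKBIA value at 96 h, and without them the UCSD-AML1 change there was 0.59 (adjusted p = 0.0649).

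NFKBIZ, an atypical nuclear IkB that co-activates a subset of inflammatory genes, was 143, 159 and 155 scaled reads at 96 h and 103, 129 and 62 at 144 h, against 359, 275 and 476 (96 h) and 198, 213 and 76.6 (144 h) with DAC in UCSD-AML1. In ELF-153 it was 12.3, 13.3 and 7.29 at 96 h and 20.3, 10.7 and 10.7 at 144 h, against 71, 108 and 52.8 (96 h) and 91.4, 123 and 86.7 (144 h) with DAC. The change in ELF-153 was 2.69 ± 0.3 (adjusted p = 1.14e-05) at 96 h and 2.81 ± 0.4 (adjusted p = 0.000123) at 144 h, without overlap. In UCSD-AML1 it was 1.24 ± 0.3 (adjusted p = 0.00461) at 96 h, or 0.86 (0.0932) without retained-intron and processed transcripts, and at 144 h 0.65 ± 0.4 (adjusted p = 0.202), where the third treated library lay within the untreated range. ZC3H12A, the endonuclease Regnase-1 that degrades inflammatory mRNAs, rose in UCSD-AML1 by 1.01 ± 0.22 (adjusted p = 0.00229) at 96 h and 1.71 ± 0.2 (adjusted p = 2.4e-05) at 144 h, and in ELF-153 by 0.78 ± 0.2 (adjusted p = 0.00728) at 144 h. Its rise in ELF-153 at 96 h, 0.63 ± 0.22 (adjusted p = 0.0382), had an adjusted p of 0.0681 with TMM, 0.101 with edgeR, 0.102 with DESeq2, 0.0543 without the filter and 0.115 in a fit of the line's own 6 libraries. It was also lost when treated replicate 1 (0.54, adjusted p = 0.116), 2 (0.7, 0.0512) or 3 (0.66, 0.0779) or untreated replicate 2 (0.44, 0.131) or 3 (0.55, 0.12) was left out.

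TNIP1, a partner of A20, rose in ELF-153 at 96 h by 0.96 ± 0.27 (adjusted p = 0.0133) and in UCSD-AML1 at 144 h by 0.95 ± 0.31 (adjusted p = 0.0255). Both calls depended on single libraries and on the transcripts summed. The first was lost without treated replicate 3 (0.88, adjusted p = 0.0517) or untreated replicate 3 (0.82, 0.0538), and the second without treated replicate 1 (0.96, 0.0559) or 3 (0.88, 0.0756) or untreated replicate 1 (0.88, 0.0783) or 2 (0.91, 0.0713). Most TNIP1 reads lay on retained-intron or processed transcripts, and without those the ELF-153 change at 96 h was -0.52 (adjusted p = 0.282) and the UCSD-AML1 change at 144 h 0.27 (0.644). The UCSD-AML1 value was 0.65 (0.0735) with the GC trend of each library removed. The ELF-153 value was 0.57 (0.341) with the mitochondrial rRNA share in the fit and had an adjusted p of 0.0586 in a fit of the line's own 6 libraries. BCL3, an IkB family member that acts in the nucleus, rose at 144 h by 1.19 ± 0.28 (adjusted p = 0.00412) in ELF-153 and 0.8 ± 0.28 (adjusted p = 0.0296) in UCSD-AML1, the latter lost without treated replicate 1 (0.84, 0.0561) or 3 (0.7, 0.0979) or untreated replicate 1 (0.79, 0.0746) or 2 (0.53, 0.142). That UCSD-AML1 value was also 0.7 (0.123) without retained-intron and processed transcripts, 0.47 (0.0639) with the GC trend removed and 0.8 (0.0504) in a fit of the line's own 6 libraries. NFKBIE, which encodes IkB epsilon, ranged from 269 to 847 scaled reads over the 24 libraries and passed no DAC test. TNIP3, another A20 partner, had 8.35 to 30.2 scaled reads in UCSD-AML1, with no call, and no read in the 12 libraries of ELF-153.

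Of the 5 subunit genes 3 rose and 1 fell in UCSD-AML1 and 4 rose in ELF-153, at each harvest. Those of the non-canonical route rose in both lines, and REL moved in opposite directions. NFKB2, the precursor of p52, was 44, 51.3 and 38.6 scaled reads at 96 h and 47.7, 47.9 and 65.6 at 144 h, against 176, 179 and 170 (96 h) and 229, 218 and 304 (144 h) with DAC in UCSD-AML1. ELF-153 libraries held 33.6, 23.6 and 41.9 at 96 h and 31.9, 53.3 and 32 at 144 h, against 157, 121 and 141 (96 h) and 205, 138 and 206 (144 h) with DAC. Treated and untreated libraries were apart throughout, with changes of 1.95 ± 0.23 (adjusted p = 2.13e-05) and 2.2 ± 0.26 (adjusted p = 3.03e-05) in UCSD-AML1 and of 2.08 ± 0.23 (adjusted p = 1.28e-05) and 2.22 ± 0.26 (adjusted p = 2.41e-05) in ELF-153 at 96 h and 144 h. RELB encodes the partner of p52. UCSD-AML1 held 12.6, 13.7 and 19.7 scaled reads at 96 h and 10.6, 7.67 and 21.5 at 144 h, against 52.1, 64.1 and 57.3 (96 h) and 94.9, 88.3 and 110 (144 h) with DAC. ELF-153 held 15.7, 12.3 and 10 at 96 h and 10.9, 16.6 and 8.54 at 144 h, against 44.5, 25.3 and 28.4 (96 h) and 63.1, 45 and 36.2 (144 h) with DAC. RELB rose without overlap, by 1.87 ± 0.32 (adjusted p = 0.000404) and 2.91 ± 0.38 (adjusted p = 5.83e-05) in UCSD-AML1 and by 1.28 ± 0.32 (adjusted p = 0.00682) and 1.93 ± 0.38 (adjusted p = 0.00131) in ELF-153. Retained-intron or processed transcripts held 59.1% and 59.8% of the NFKB2 value at 96 h and 144 h. For RELB they held 36.0% and 41.5%. A RELB transcript annotated for nonsense-mediated decay, not as coding, held a further 49.3% and 50.7%. A rise of the coding RELB transcripts alone was not tested.

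RELA encodes p65, the main activating subunit of the canonical dimer. Untreated UCSD-AML1 had 118, 88 and 120 scaled reads at 96 h and 64.5, 82.5 and 101 at 144 h, against 197, 245 and 217 (96 h) and 197, 221 and 272 (144 h) with DAC. Untreated ELF-153 had 88.5, 66.6 and 136 at 96 h and 84.9, 85.3 and 80.1 at 144 h, against 149, 120 and 137 (96 h) and 160, 154 and 156 (144 h) with DAC. RELA rose in UCSD-AML1 at both harvests, by 1.01 ± 0.25 (adjusted p = 0.00504) and 1.48 ± 0.2 (adjusted p = 8.72e-05), and in ELF-153 at 144 h by 0.9 ± 0.2 (adjusted p = 0.00328). Retained-intron or processed transcripts held 66.5% of the RELA value at 96 h, and without them the UCSD-AML1 change there was 0.75 (adjusted p = 0.0777). At 96 h the ELF-153 groups overlapped and the change was 0.53 ± 0.25 (adjusted p = 0.112). NFKB1, the precursor of p50, was 61.9, 61.4 and 53.6 scaled reads at 96 h and 40.7, 38.3 and 51.3 at 144 h, against 56.1, 48.3 and 68 (96 h) and 57.1, 67.4 and 69.8 (144 h) with DAC in UCSD-AML1. In ELF-153 it was 22.4, 10.2 and 18.2 at 96 h and 33.4, 26.1 and 6.41 at 144 h, against 21.8, 51.5 and 36.2 (96 h) and 43, 45.9 and 27.5 (144 h) with DAC. The groups overlapped in all but UCSD-AML1 at 144 h. UCSD-AML1 gave -0.05 ± 0.34 (adjusted p = 0.933) and 0.57 ± 0.46 (adjusted p = 0.33), with no call. The rise in ELF-153 at 96 h, 1.05 ± 0.34 (adjusted p = 0.0315), was lost without treated replicate 2 (0.76, adjusted p = 0.142) or 3 (1.01, 0.0821) or untreated replicate 2 (0.74, 0.107). It also missed the threshold without retained-intron and processed transcripts (0.88, 0.0563), with the mitochondrial rRNA share in the fit (1.23, 0.128), in the line's own 6 libraries (1.05, 0.11) and with the replicate block (1.05, 0.0529). At 144 h the ELF-153 change was 1.03 ± 0.46 (adjusted p = 0.0957).

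REL, the c-Rel subunit found mostly in blood cells, was the 1 member that fell. UCSD-AML1 held 443, 469 and 449 scaled reads at 96 h and 358, 347 and 193 at 144 h, against 258, 268 and 332 (96 h) and 113, 180 and 135 (144 h) with DAC. ELF-153 held 70.6, 98.3 and 79.3 at 96 h and 102, 68.7 and 55.5 at 144 h, against 130, 282 and 166 (96 h) and 184, 184 and 154 (144 h) with DAC. In UCSD-AML1 every treated library was below every untreated one, and in ELF-153 every treated library was above. The change was -0.67 ± 0.25 (adjusted p = 0.0449) in UCSD-AML1 at 96 h and -1.04 ± 0.29 (adjusted p = 0.0101) at 144 h, and 1.15 ± 0.25 (adjusted p = 0.003) and 1.23 ± 0.29 (adjusted p = 0.00424) in ELF-153. The fall at 96 h was not called with TMM scaling (-0.52, adjusted p = 0.103), edgeR (-0.52, 0.102) or DESeq2 (-0.54, 0.0701), with no filter on low values (-0.67, 0.0696), or without retained-intron and processed transcripts of other genes (-0.67, 0.0536). Nor was it called without treated replicate 1 (-0.6, 0.132) or 2 (-0.63, 0.117) or any of the untreated replicates 1, 2 and 3 (-0.69, 0.0928, then -0.65, 0.113, and -0.68, 0.0951). With the GC trend of each library removed, the falls were -0.09 (adjusted p = 0.661) and -0.08 (0.789), and with the mitochondrial rRNA share in the fit the ELF-153 rises were 0.47 (0.298) and 0.7 (0.143). The difference between the lines, 1.82 ± 0.35 at 96 h (adjusted p = 0.00292) and 2.27 ± 0.41 at 144 h (0.00205), was larger than the spread between libraries at both harvests, though with the GC trend removed it was 0.63 (0.0515) at 96 h.

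**Figure D2:**
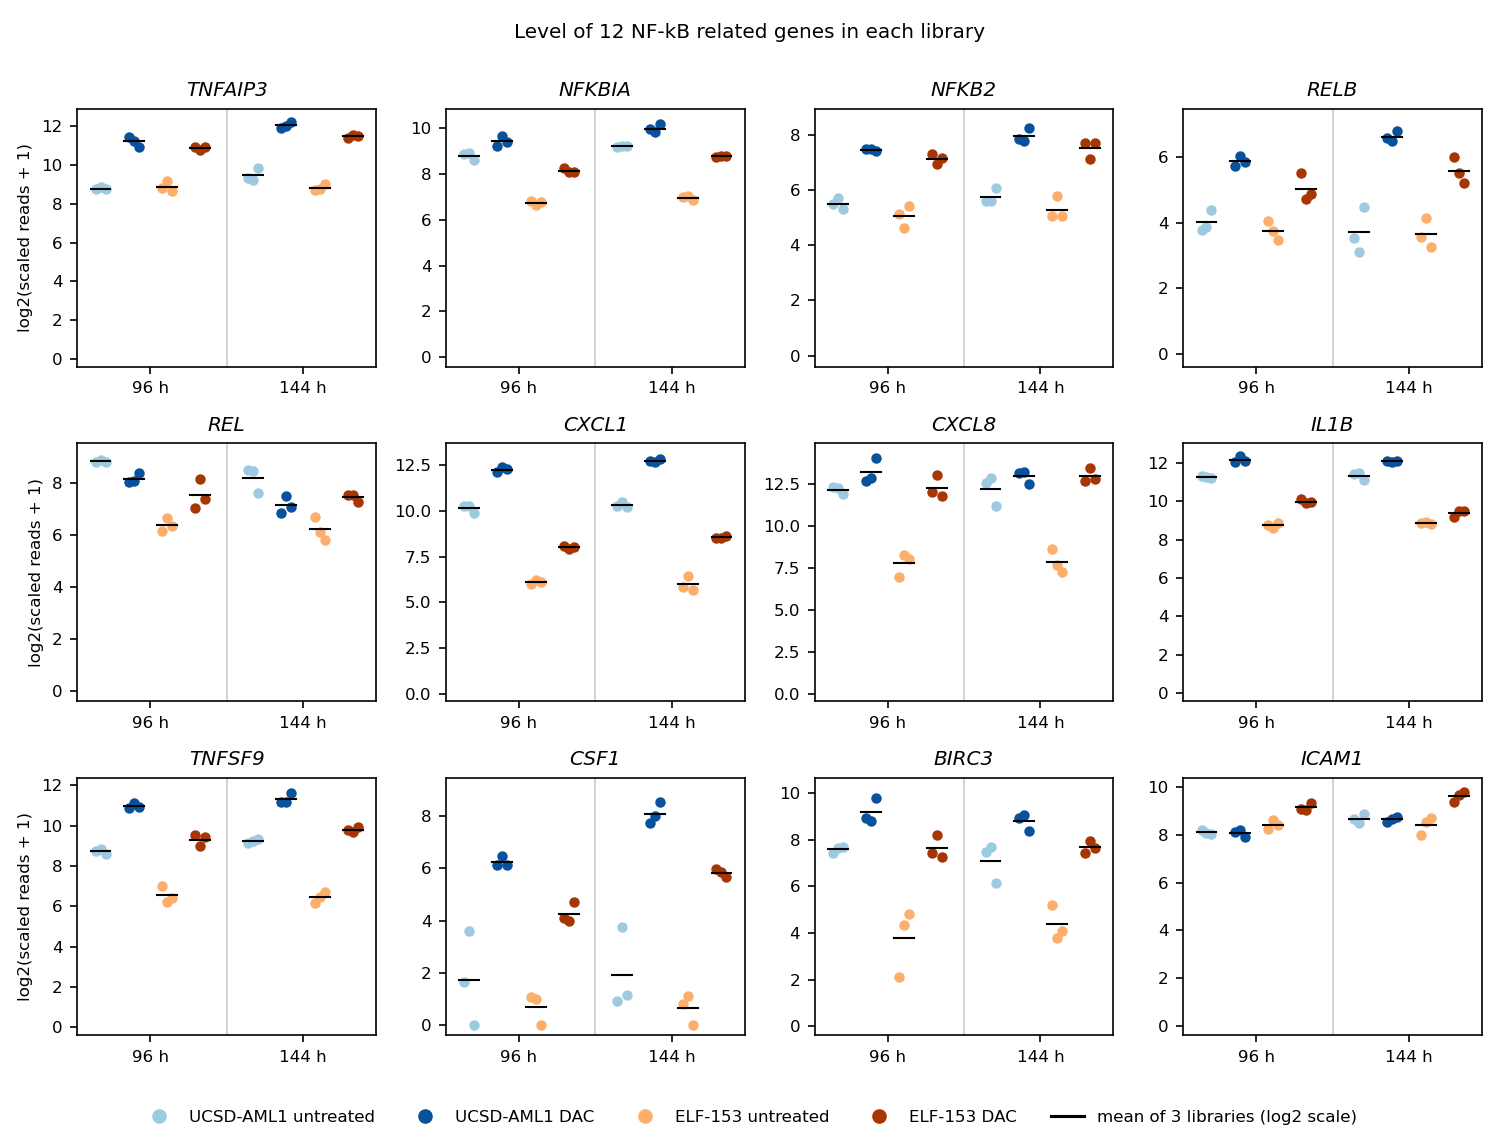
Level of 12 members in each of the 24 libraries, as log2(scaled reads + 1), by line, treatment and harvest; each point is 1 library and each black bar the mean of 3. The treated points of TNFAIP3, NFKB2, CXCL1 and TNFSF9 lie above all untreated points of the same line and harvest, and those of REL lie below them in UCSD-AML1.

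Of the tested chemokines 3 of 4 rose in UCSD-AML1 and 4 of 4 in ELF-153 at 96 h, and 4 of 5 and 5 of 5 at 144 h. Without CXCL16, which passed the filter at 144 h only through treated libraries, the counts there were 3 of 4 and 4 of 4. CXCL1, CXCL2 and CXCL3 attract neutrophils. CXCL1 in UCSD-AML1 was 1256, 1236 and 951 scaled reads at 96 h and 1246, 1474 and 1183 at 144 h, against 4441, 5487 and 5000 (96 h) and 6790, 6547 and 7435 (144 h) with DAC. ELF-153 held much less, 62.7, 73.8 and 69.3 at 96 h and 56.6, 86.5 and 50.2 at 144 h, against 272, 245 and 263 (96 h) and 371, 375 and 391 (144 h) with DAC. The change was 2.12 ± 0.16 (adjusted p = 4.11e-07) and 2.42 ± 0.19 (adjusted p = 1.15e-06) in UCSD-AML1 and 1.91 ± 0.16 (adjusted p = 1.02e-06) and 2.58 ± 0.19 (adjusted p = 4.22e-07) in ELF-153, and the difference between the lines was -0.21 ± 0.23 at 96 h (adjusted p = 0.525) and 0.16 ± 0.27 at 144 h (0.67). CXCL2 had 682, 638 and 609 scaled reads at 96 h and 876, 904 and 877 at 144 h, against 1594, 1787 and 1980 (96 h) and 2632, 2866 and 2342 (144 h) with DAC in UCSD-AML1. In ELF-153 it had 353, 311 and 324 at 96 h and 453, 374 and 400 at 144 h, against 804, 800 and 758 (96 h) and 1081, 1192 and 1091 (144 h) with DAC. It rose by 1.47 ± 0.14 (adjusted p = 4.05e-06) and 1.56 ± 0.14 (adjusted p = 3.61e-06) and by 1.26 ± 0.14 (adjusted p = 1.67e-05) and 1.46 ± 0.14 (adjusted p = 4.31e-06). CXCL3 had 452, 489 and 404 scaled reads at 96 h and 615, 609 and 522 at 144 h, against 1321, 1560 and 1653 (96 h) and 1715, 1615 and 1926 (144 h) with DAC in UCSD-AML1. In ELF-153 it had 156, 114 and 139 at 96 h and 115, 143 and 175 at 144 h, against 498, 433 and 419 (96 h) and 569, 529 and 516 (144 h) with DAC. Its rises were 1.75 ± 0.17 (adjusted p = 3.97e-06) and 1.59 ± 0.18 (adjusted p = 1.61e-05) in UCSD-AML1 and 1.73 ± 0.17 (adjusted p = 4.23e-06) and 1.91 ± 0.18 (adjusted p = 2.43e-06) in ELF-153, and for none of the 3 genes did treated and untreated libraries overlap. Without retained-intron and processed transcripts the UCSD-AML1 rise of CXCL3 at 144 h was 1.37 (adjusted p = 0.101).

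CXCL8, or interleukin-8, changed differently. Untreated UCSD-AML1 held 5178, 4829 and 3799 scaled reads at 96 h and 5936, 7408 and 2357 at 144 h, against 6470, 7279 and 17125 (96 h) and 9170, 9360 and 5727 (144 h) with DAC. Untreated ELF-153 held 123, 314 and 266 at 96 h and 391, 205 and 155 at 144 h, against 4131, 8192 and 3563 (96 h) and 6584, 11052 and 7063 (144 h) with DAC. In ELF-153 all treated libraries lay far above the untreated ones and the change was 4.5 ± 0.41 (adjusted p = 1.83e-06) at 96 h and 5.11 ± 0.43 (adjusted p = 1.66e-06) at 144 h. In UCSD-AML1 it was 1.03 ± 0.41 (adjusted p = 0.0588) and 0.75 ± 0.43 (adjusted p = 0.168), with no call. The UCSD-AML1 groups were apart at 96 h, and at 144 h the lowest treated library, replicate 3, lay below untreated replicates 1 and 2. The difference between the lines was 3.47 ± 0.58 (adjusted p = 0.00107) and 4.36 ± 0.6 (0.000441). CXCL8 was highest in the library with the most mitochondrial rRNA in 6 of the 8 groups. With that share in the fit the ELF-153 change was 3.24 (0.00155) at 96 h and 3.8 (1.01e-05) at 144 h. CXCL16, a membrane-bound chemokine, was sparse, with 0, 1.92 and 3.58 untreated and 12.6, 13.1 and 12.4 treated scaled reads in UCSD-AML1 at 144 h and a change of 2.53 ± 0.63 (adjusted p = 0.00557). At 96 h, where it was not tested, UCSD-AML1 held 5.24, 4.58 and 2.36 and then 3.93, 12.4 and 11.7, with overlap. In ELF-153 it was listed at 0, 1.02 and 1.82 untreated and 1.89, 0 and 0 treated at 96 h, and at 0, 0 and 2.14 and 5.48, 7.34 and 2.2 at 144 h. That is 2 untreated and 16 treated reads at 144 h, a ratio of 8.17 with a 95% counting interval from 1.92 to 73.2. This last call was lost without treated replicate 1 (adjusted p = 0.0855) or 2 (0.111) or untreated replicate 1 (0.0758) or 2 (0.0986), where the changes were 1.82, 1.64, 1.65 and 1.65. It was lost as well without retained-intron and processed transcripts (1.45, 0.14), with edgeR (2.73, 0.0539), DESeq2 (2.95, 0.0505) and the mitochondrial rRNA share in the fit (2.34, 0.0666), and with the replicate block (1.93, 0.0517).

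All 5 tested cytokines and TNF family ligands rose in every comparison. Because CSF1 and IL1A passed the filter only through treated libraries, the count that does not depend on them is 3 of 3, for IL1B, TNFSF9 and EBI3. CSF1, the growth factor of macrophages, was near 0 in most untreated libraries. UCSD-AML1 held 2.1, 11 and 0 scaled reads at 96 h and 0.884, 12.5 and 1.19 at 144 h, against 68.9, 87.7 and 69 (96 h) and 212, 257 and 375 (144 h) with DAC. ELF-153 held 1.12, 1.02 and 0 at 96 h and 0.726, 1.18 and 0 at 144 h, against 16.1, 14.8 and 25.4 (96 h) and 62.2, 56.9 and 49.4 (144 h) with DAC. The treated libraries stood above the untreated ones throughout. In UCSD-AML1 the change was 4.5 ± 0.69 (adjusted p = 0.000186) and 6.17 ± 0.62 (adjusted p = 8.05e-06). The 2 untreated reads in ELF-153 against 60 treated reads at 96 h gave a ratio of 27.6 (95% counting interval from 7.31 to 233). The 2 against 175 at 144 h gave a ratio of 89.3 (24.4 to 743), with adjusted p-values of 0.00134 and 2.58e-05. IL1A, the membrane-associated form of interleukin-1, went the same way. UCSD-AML1 held 2.1, 0 and 1.58 scaled reads at 96 h and 0, 0.959 and 0 at 144 h, against 18.7, 7.87 and 21.4 (96 h) and 19.3, 26.2 and 10.1 (144 h) with DAC. ELF-153 held 0, 0 and 1.82 at 96 h and 2.9, 0 and 0 at 144 h, against 46.4, 79.4 and 45 (96 h) and 66.7, 73.4 and 54.9 (144 h) with DAC. The read ratio was 85.6 (23.4 to 712) in ELF-153 at 96 h and 58 (10 to 2326) in UCSD-AML1 at 144 h, with adjusted p-values of 1.04e-05 and 0.00016. The fitted change was 2.98 ± 0.58 (adjusted p = 0.00114) in UCSD-AML1 at 96 h and 5.38 ± 0.57 (adjusted p = 9.44e-06) in ELF-153 at 144 h. These intervals cover counting error only.

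IL1B, the secreted interleukin-1, was expressed in untreated cells. UCSD-AML1 held 2532, 2484 and 2341 scaled reads at 96 h and 2763, 2790 and 2234 at 144 h, against 4253, 5147 and 4325 (96 h) and 4372, 4275 and 4415 (144 h) with DAC. ELF-153 held 435, 386 and 457 at 96 h and 462, 486 and 442 at 144 h, against 1096, 943 and 987 (96 h) and 582, 713 and 721 (144 h) with DAC. The groups did not overlap, and the changes were 0.89 ± 0.15 (adjusted p = 0.000282) and 0.75 ± 0.15 (adjusted p = 0.00123) in UCSD-AML1 and 1.24 ± 0.15 (adjusted p = 1.85e-05) and 0.53 ± 0.15 (adjusted p = 0.0121) in ELF-153. The ELF-153 rise at 144 h was not called without treated replicate 2 (0.49, adjusted p = 0.051) or 3 (0.48, 0.051), nor with the mitochondrial rRNA share in the fit (0.45, 0.0576). TNFSF9, the ligand of the T-cell costimulatory receptor CD137, was 436, 455 and 389 scaled reads at 96 h and 565, 600 and 641 at 144 h, against 1893, 2242 and 1967 (96 h) and 2326, 2300 and 3134 (144 h) with DAC in UCSD-AML1. In ELF-153 it was 128, 72.7 and 83.8 at 96 h and 69.7, 88.8 and 105 at 144 h, against 735, 510 and 683 (96 h) and 870, 831 and 963 (144 h) with DAC. The rise was 2.25 ± 0.21 (adjusted p = 2.83e-06) and 2.09 ± 0.18 (adjusted p = 2.72e-06) in UCSD-AML1 and 2.77 ± 0.21 (adjusted p = 3.53e-07) and 3.34 ± 0.18 (adjusted p = 2.99e-08) in ELF-153, without overlap.

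EBI3, a subunit of interleukin-27 and interleukin-35, had 55.6, 67.8 and 64.6 scaled reads at 96 h and 57.5, 65.2 and 60.8 at 144 h, against 116, 118 and 132 (96 h) and 84.9, 98.8 and 144 (144 h) with DAC in UCSD-AML1. In ELF-153 it had 2.24, 3.07 and 8.2 at 96 h and 2.9, 3.55 and 2.14 at 144 h, against 35, 25.3 and 33.3 (96 h) and 36.6, 39.5 and 48.3 (144 h) with DAC. Treated and untreated libraries did not overlap. ELF-153 rose by 2.69 ± 0.35 (adjusted p = 4.81e-05) and 3.46 ± 0.28 (adjusted p = 8.24e-07), and UCSD-AML1 by 0.95 ± 0.35 (adjusted p = 0.0427) and 0.79 ± 0.28 (adjusted p = 0.033). Neither UCSD-AML1 call was firm: with a replicate block the 144 h value was 0.79 with an adjusted p of 0.0632, and leaving out any 1 of the 6 libraries at 96 h raised the adjusted p to between 0.0791 and 0.123 (changes from 0.87 to 1.01). At 144 h the call was lost without treated replicate 2 (0.85, 0.0594) or 3 (0.58, 0.142) or untreated replicate 1 (0.75, 0.0944), 2 (0.84, 0.0645) or 3 (0.79, 0.0616). With the GC trend removed the UCSD-AML1 values were 0.7 (0.142) and 0.44 (0.208), with no filter on low values 0.95 (0.0722) and 0.79 (0.0812). At 96 h the value was 0.8 (0.164) with the mitochondrial rRNA share in the fit and 0.96 (0.0558) with a pseudocount of 0.5.

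Of 6 tested survival, adaptor and stress genes 2 rose in UCSD-AML1 and 5 in ELF-153 at 96 h, and 3 and 5 at 144 h. BIRC3, the inhibitor of apoptosis cIAP2, and SQSTM1, the autophagy adaptor p62, rose in both lines. BIRC3 was 174, 203 and 204 scaled reads at 96 h and 179, 205 and 69.2 at 144 h, against 494, 446 and 888 (96 h) and 498, 541 and 337 (144 h) with DAC in UCSD-AML1. ELF-153 had a level of 3.36, 19.5 and 27.3 at 96 h and 36.3, 13 and 16 at 144 h, against 172, 300 and 152 (96 h) and 171, 247 and 200 (144 h) with DAC. No treated library overlapped an untreated one of its line and harvest. The change was 3.87 ± 0.53 (adjusted p = 7.8e-05) and 3.3 ± 0.42 (adjusted p = 5.22e-05) in ELF-153 and 1.58 ± 0.53 (adjusted p = 0.0289) and 1.71 ± 0.42 (adjusted p = 0.00564) in UCSD-AML1. The UCSD-AML1 call at 96 h was lost without treated replicate 1 (1.7, adjusted p = 0.061) or 3 (1.28, 0.109) or untreated replicate 1 (1.51, 0.088), 2 (1.62, 0.065) or 3 (1.62, 0.0675), and was 0.26 (0.657) with the mitochondrial rRNA share in the fit, 1.58 (0.0689) with no filter and 1.53 (0.0522) without retained-intron and processed transcripts. BIRC3 too was highest in the library with the most mitochondrial rRNA in 6 of 8 groups and lowest in that with the least in 6 of 8. In ELF-153 its change with that share in the fit was 1.98 (0.0177) at 96 h. SQSTM1 rose by 1.57 ± 0.22 (adjusted p = 0.000103) and 2.06 ± 0.22 (adjusted p = 1.45e-05) in UCSD-AML1 and by 1.05 ± 0.22 (adjusted p = 0.00262) and 1.59 ± 0.22 (adjusted p = 0.000102) in ELF-153.

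PTGS2, the inducible cyclooxygenase COX-2, was 202, 181 and 169 scaled reads at 96 h and 112, 180 and 58.4 at 144 h, against 102, 75.3 and 169 (96 h) and 93.3, 133 and 114 (144 h) with DAC in UCSD-AML1. In ELF-153 the level was 3.36, 1.02 and 0 at 96 h and 2.18, 11.8 and 1.07 at 144 h, against 23.7, 65.4 and 16.6 (96 h) and 35.6, 77.1 and 40.6 (144 h) with DAC. The ELF-153 groups did not overlap and the rise was 3.89 ± 0.54 (adjusted p = 8.72e-05) and 3.49 ± 0.6 (adjusted p = 0.000556), whereas UCSD-AML1 gave -0.74 ± 0.54 (adjusted p = 0.293) and 0.08 ± 0.6 (adjusted p = 0.928). SOD2, the mitochondrial superoxide dismutase, is often used as a marker of NF-kB activity. UCSD-AML1 held 220, 216 and 160 scaled reads at 96 h and 166, 198 and 203 at 144 h, against 286, 306 and 254 (96 h) and 305, 274 and 319 (144 h) with DAC. ELF-153 held 339, 139 and 235 at 96 h and 164, 288 and 311 at 144 h, against 268, 172 and 224 (96 h) and 190, 229 and 257 (144 h) with DAC. The UCSD-AML1 groups were apart at both harvests and the ELF-153 groups overlapped at both. SOD2 did not pass the test in ELF-153, with -0.04 ± 0.28 (adjusted p = 0.938) and -0.13 ± 0.23 (adjusted p = 0.696), nor in UCSD-AML1 at 96 h, with 0.51 ± 0.28 (adjusted p = 0.163). The UCSD-AML1 rise at 144 h, 0.66 ± 0.23 (adjusted p = 0.0336), was lost without treated replicate 1 (0.65, 0.0779), 2 (0.72, 0.0523) or 3 (0.61, 0.0901) or untreated replicate 1 (0.57, 0.114) or 2 (0.7, 0.0618), and with no filter on low values (0.66, 0.0577). TRAF1, a signalling adaptor, rose in ELF-153 by 1.92 ± 0.41 (adjusted p = 0.00264) and 1.71 ± 0.45 (adjusted p = 0.00918), and with the mitochondrial rRNA share in the fit the 96 h value was 0.96 (0.253). TNFAIP2, a TNF-induced protein, rose in ELF-153 by 0.91 ± 0.25 (adjusted p = 0.0113) and 0.72 ± 0.21 (adjusted p = 0.0151), and either call was lost without treated replicate 3 (0.81, 0.0515, and 0.6, 0.07), and the 96 h call in a fit of the line's own 6 libraries (0.91, 0.0587). Neither passed the test in UCSD-AML1.

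Of the 3 surface molecules none rose in UCSD-AML1 and 2 rose in ELF-153 at 96 h, and 1 and 2 at 144 h. ICAM1, the ligand of leukocyte integrins, rose in ELF-153. UCSD-AML1 held 295, 269 and 266 scaled reads at 96 h and 403, 363 and 464 at 144 h, against 276, 299 and 242 (96 h) and 373, 402 and 436 (144 h) with DAC. ELF-153 held 300, 398 and 340 at 96 h and 256, 372 and 424 at 144 h, against 552, 529 and 651 (96 h) and 665, 807 and 898 (144 h) with DAC. The ELF-153 groups did not overlap and differed by 0.74 ± 0.17 (adjusted p = 0.00416) and 1.19 ± 0.2 (adjusted p = 0.000484), and the UCSD-AML1 groups overlapped, with -0.03 ± 0.17 (adjusted p = 0.925) and -0.02 ± 0.2 (adjusted p = 0.956). With the mitochondrial rRNA share in the fit the ELF-153 value at 96 h was 0.54 (0.116). CD83, a marker of activated antigen-presenting cells, rose in ELF-153 by 0.84 ± 0.19 (adjusted p = 0.0044) and 1.62 ± 0.15 (adjusted p = 3.05e-06) and in UCSD-AML1 at 144 h by 0.78 ± 0.15 (adjusted p = 0.00118). PLAUR, the urokinase receptor, ranged from 14.6 to 77.3 scaled reads and passed no DAC test.

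In untreated cells most members were lower in ELF-153 than in UCSD-AML1. At 96 h 19 of 31 were lower and none higher, against 35.2% and 22.7% of all genes, and at 144 h 23 of 32 were lower and PLAUR was higher, against 23.1% and 28.7%. The median difference of the members was -1.69 and -1.26, and that of all genes -0.23 and 0.08. Of the 8 feedback inhibitors and IkB family genes 5 were lower at 96 h and all 8 at 144 h. Of the tested chemokines 4 of 4 and then 4 of 5 were lower. Not called at 96 h were TNFAIP3 (0.1 ± 0.18, adjusted p = 0.644), ZC3H12A (-0.34 ± 0.22, 0.197) and BCL3 (-0.66 ± 0.28, 0.0561). CXCL1 differed by -4.04 ± 0.16 (adjusted p = 1.53e-10) at 96 h and -4.35 ± 0.19 (adjusted p = 1.41e-09) at 144 h, and CXCL8 by -4.38 ± 0.41 (adjusted p = 8.85e-07) and -4.34 ± 0.43 (adjusted p = 4.05e-06). IL1B differed by -2.53 ± 0.15 (adjusted p = 5.92e-09) and -2.48 ± 0.15 (adjusted p = 2.44e-08), NFKBIA by -2.04 ± 0.17 (adjusted p = 2.42e-07) and -2.24 ± 0.15 (adjusted p = 6.46e-08), and PTGS2 by -6.48 ± 0.54 (adjusted p = 2.78e-07) and -4.61 ± 0.6 (adjusted p = 4.29e-05). Not every pathway gene followed: RELA was -0.21 ± 0.25 (adjusted p = 0.484) and 0.03 ± 0.2 (adjusted p = 0.905), and ICAM1 0.31 ± 0.17 (adjusted p = 0.126) and -0.25 ± 0.2 (adjusted p = 0.32). PLAUR was 1.17 ± 0.32 (adjusted p = 0.00784) at 144 h, but 0.63 (0.0775) with the GC trend removed and 0.75 (0.242) with the mitochondrial rRNA share in the fit. With TMM scaling the counts were 18 lower and 1 higher at 96 h and 23 and 1 at 144 h, while the share of higher genes among all calls moved from 39.3% to 50.2% at 96 h. The 2 lines also differed in mitochondrial rRNA, and with that share in the fit BIRC3 at 96 h differed by -1.25 (adjusted p = 0.182) and TRAF1 by -0.84 (0.412). At 144 h NFKB1 then differed by -0.64 (0.504) and CD83 by -0.49 (0.0694). The call of NFKBIE at 96 h was lost with TMM (-0.47, 0.0636), edgeR (-0.44, 0.0789) and DESeq2 (-0.47, 0.064). With no filter NFKB1 and CD83 at 144 h were -1.21 (0.0537) and -0.45 (0.0651), NFKB1 was -0.99 (0.0568) with edgeR and CD83 was -0.36 (0.0841) with the GC trend removed. Single libraries also decided the 144 h calls of NFKB1, CD83 and TNIP1. Without untreated ELF-153 replicate 3 they were -0.53 (0.171), -0.47 (0.0504) and -0.84 (0.0543). Without untreated UCSD-AML1 replicate 1 or 2 NFKB1 was -1.25 (0.0806) and -1.29 (0.0693) and CD83 -0.39 (0.0945) and -0.41 (0.0772), and without replicate 3 NFKB1 was -1.09 (0.0986).

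**Figure D3:**
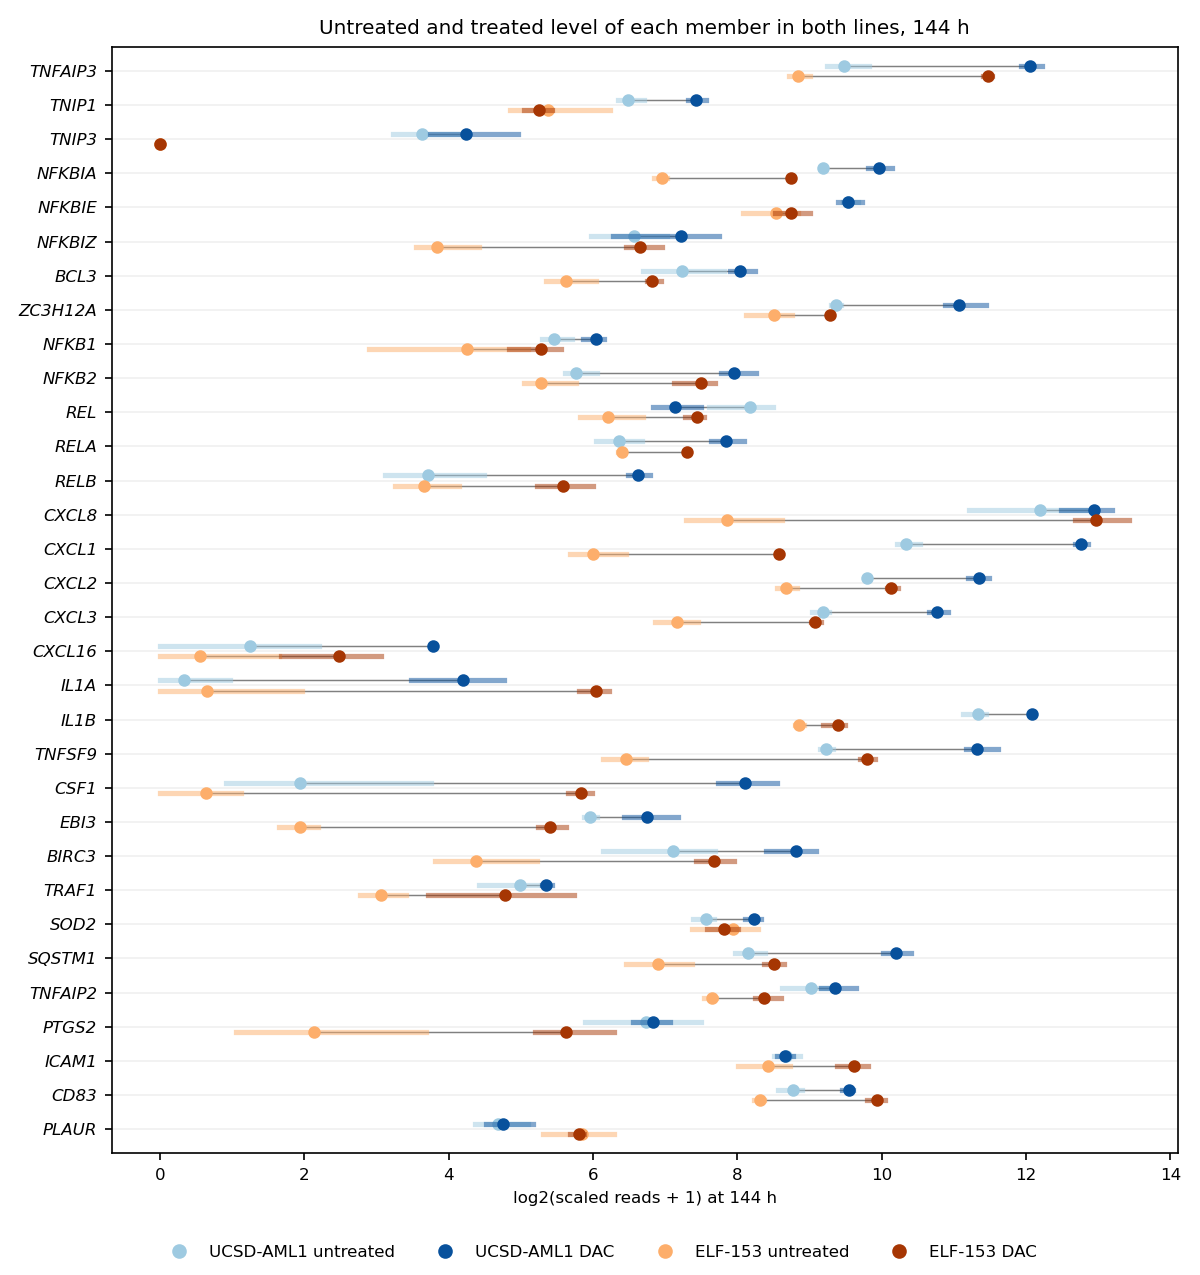
Level of the members at 144 h as log2(scaled reads + 1), for UCSD-AML1 and ELF-153 with and without DAC; points are means and bars the range of 3 libraries. Untreated ELF-153 lies below untreated UCSD-AML1 for 23 of the 32 tested members by the test, and treated ELF-153 held 6584 to 11052 scaled reads of CXCL8 where untreated UCSD-AML1 held 2357 to 7408.

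The change with DAC was larger in ELF-153 for 8 of 31 members at 96 h and smaller for none, against 17.1% and 8.71% of all genes. At 144 h it was larger for 9 of 32 and smaller for 1, ZC3H12A, against 19.9% and 10.1%. These counts were not far from the background, and the untreated libraries enter this comparison as well as the one before it. The median difference of the members was 0.35 and 0.26, and that of all genes 0.19 and 0.21. The count depended on scaling: TMM moved the median of all genes from 0.194 to 0 at 96 h and from 0.208 to -0.105 at 144 h, and gave 5 members larger in ELF-153 at 96 h, and 7 larger and 4 smaller at 144 h. The share of larger rises among all calls moved from 66.3% to 53.3% at 96 h and from 66.3% to 48% at 144 h. CXCL8, NFKBIA, NFKBIZ, REL, EBI3, PTGS2 and ICAM1 were called at both harvests. Of these PTGS2 differed by 4.64 ± 0.76 (adjusted p = 0.000979) and 3.41 ± 0.85 (adjusted p = 0.0127) and EBI3 by 1.73 ± 0.49 (adjusted p = 0.0211) and 2.67 ± 0.4 (adjusted p = 0.00057). TNFSF9 differed at 144 h by 1.25 ± 0.26 (adjusted p = 0.00509). For TNFAIP3, NFKB2, CXCL1, CXCL2 and CXCL3 the difference ranged from -0.44 to 0.32 and passed the test at neither harvest, with standard errors from 0.2 to 0.37. At 96 h the count fell to 3 members without treated UCSD-AML1 replicate 1, and to 5, 4 and 5 without untreated UCSD-AML1 replicate 1, 2 or 3.

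Further upstream, 25 of 28 listed signalling genes between receptors and NF-kB were tested. In UCSD-AML1 5 rose and 2 fell at 96 h, where 20% of all genes rose and 20.1% fell, and 6 and 2 at 144 h, where the shares were 20.1% and 26.8%. The rises in that line were at or near the background. In ELF-153 8 rose and 3 fell, against 20.7% and 12.9% of all genes, and then 10 and 1, against 20.8% and 18.2%. The medians of the list were from -0.01 to 0.55, and those of all genes are given above. IRAK2, a kinase of the interleukin-1 and Toll-like receptor pathway, rose in all 4 comparisons. In UCSD-AML1 at 96 h it had 343, 284 and 279 scaled reads untreated and 2209, 2555 and 2144 with DAC, with a change of 2.93 ± 0.28 (adjusted p = 2.95e-06), and at 144 h 2.53 ± 0.36 (0.00011). In ELF-153 it went from 1.12, 0 and 0 to 82.4, 57.6 and 66.5 at 96 h (adjusted p = 3.17e-09) and from 2.9, 1.18 and 0 to 139, 146 and 137 at 144 h (4.61e-08). The adaptor TAB2 rose in UCSD-AML1, by 1.63 ± 0.28 (0.00041) and 2.01 ± 0.33 (0.000304), with a difference between lines of -1.66 ± 0.39 (0.00869) and -1.51 ± 0.46 (0.0281). The ubiquitin ligase TRAF6 rose in ELF-153, by 1.67 ± 0.26 (0.000233) and 1.26 ± 0.26 (0.00214), where the differences were 1.41 ± 0.37 (0.0139) and 1.64 ± 0.37 (0.0079).

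The list also held IRAK4, the kinase that acts with IRAK2, at 0.68 ± 0.15 (0.00278) in UCSD-AML1 at 96 h, BIRC2, a relative of BIRC3, at 1.37 ± 0.24 (0.000573) in ELF-153 at 96 h, TRAF3, which restrains the non-canonical route, at 0.81 ± 0.16 (0.00132) in UCSD-AML1 at 144 h, and CYLD, a deubiquitinase that dampens the pathway, at 1.7 ± 0.31 (0.000728) in ELF-153 at 144 h. Of 24 receptors that signal to NF-kB 15 were tested. Of these 1 rose and 2 fell in UCSD-AML1 at 96 h and 4 and 2 at 144 h. In ELF-153 7 rose and 3 fell and then 6 and 4. Read against the same shares of all genes, the UCSD-AML1 rises were below the background at 96 h and near it at 144 h. The interleukin-33 receptor IL1RL1 rose in ELF-153 by 2.17 ± 0.35 (0.000315) and 3.38 ± 0.28 (1.05e-06), and TNFRSF11A, the receptor RANK, by 2.08 ± 0.26 (3.47e-05) and 3.8 ± 0.42 (1.29e-05). The shared interleukin-1 receptor chain IL1RAP rose by 0.79 ± 0.27 (0.0304) in UCSD-AML1 at 96 h and 2.51 ± 0.23 (2.14e-06) in ELF-153 at 144 h. The TNF receptor TNFRSF1A changed in UCSD-AML1 by -0.89 ± 0.25 (0.0125) and -1.03 ± 0.3 (0.0125), and the BAFF receptor TNFRSF13C changed at 96 h by -1.79 ± 0.48 (0.00872) in UCSD-AML1 and -4.79 ± 0.48 (4.17e-06) in ELF-153. In UCSD-AML1 at 144 h IL18R1, a chain of the interleukin-18 receptor, rose by 1.71 ± 0.35 (0.00168) and NOD2, a sensor of bacterial peptides, by 2.06 ± 0.54 (0.00716).

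Some markers of mature myeloid cells moved with DAC as well. The summed level of 16 monocyte and macrophage markers was 2053 to 2534 scaled reads in untreated and 9817 to 11098 in treated ELF-153 at 96 h, and 1668 to 2494 and 8337 to 11645 at 144 h. In UCSD-AML1 it was 841 to 1048 and 1132 to 1331, and then 813 to 1010 and 1111 to 1274. Of 8 tested markers 6 rose at 96 h and 5 at 144 h in ELF-153, against 20.7% and 20.8% of all genes. In UCSD-AML1 2 rose and 1 fell at 96 h, against 20% and 20.1% of all genes. At 144 h 3 rose and 1 fell there, against 20.1% and 26.8%. The UCSD-AML1 rises at 96 h were near the background. Lysozyme, LYZ, rose in ELF-153 by 2.8 ± 0.3 (7.45e-06) and 2.84 ± 0.21 (3.83e-07) and in UCSD-AML1 by 1.41 ± 0.3 (0.00193) and 1.99 ± 0.21 (1.14e-05), and the calgranulin S100A9 in ELF-153 by 2.19 ± 0.2 (2.28e-06) and 2.19 ± 0.19 (1.73e-06). The macrophage complement gene C1QB was listed at 0 in all 8 groups, and CD14 was at 0 in untreated ELF-153 at both harvests. Other members of the list were ITGAM at 1.92 ± 0.21 (1.19e-05) in ELF-153 at 96 h, S100A8 in ELF-153 at 144 h, higher (0.000156) from 0, 1.18 and 2.14 untreated scaled reads, and in UCSD-AML1 VCAN at 1.47 ± 0.37 (0.00675) and 1.33 ± 0.37 (0.0106) and FCN1 at -1.5 ± 0.47 (0.0218) and -2.06 ± 0.37 (0.000688). S100A8 was also at 0 in untreated UCSD-AML1 at 144 h, so it passed the filter there only through treated libraries. It is among the 5 rises in ELF-153 at that harvest. The part of these markers in the rise of the NF-kB targets was not tested.

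Lymphocyte markers, 12 in all with 8 tested, summed to 403 to 426 scaled reads untreated and 834 to 1227 treated in UCSD-AML1 at 96 h and to 386 to 469 and 535 to 677 in ELF-153, and at 144 h to 426 to 467 and 829 to 896 and to 367 to 481 and 552 to 702. In UCSD-AML1 4 rose and 2 fell and then 3 and 3, and in ELF-153 2 and 2 and then 3 and 2. For this list and the next, 20% and then 20.1% of all genes rose in UCSD-AML1, and 20.1% and then 26.8% fell. In ELF-153 20.7% and then 20.8% rose, and 12.9% and then 18.2% fell. CD2 was called in all 4 comparisons, from 3.53 ± 0.36 (9.41e-06) in UCSD-AML1 at 144 h to 6.08 ± 0.36 (5.7e-08) in ELF-153 at 144 h, while CD8A was listed at 0 in every group and so was MS4A1. The next smallest adjusted p of the list belonged in UCSD-AML1 to GNLY, higher (3.17e-06 at 96 h and 4.07e-07 at 144 h), and CD79A, lower (0.000174 and 5.22e-05), and in ELF-153 to CD3G, higher (0.000175 and 4.25e-06), and CD79B, lower (0.00024 and 5.13e-05). Stromal and endothelial markers, 11 with 6 tested at 96 h and 8 at 144 h, summed in UCSD-AML1 to 3172 to 3562 scaled reads untreated and 19024 to 33704 treated at 96 h, and to 2565 to 4512 and 33984 to 52818 at 144 h. There 3 rose and 1 fell, and then 6 and 1. As for the other lists, a sum is carried by the genes with most reads and does not describe the list as a whole. COL3A1, DCN and LUM were at 0 in treated UCSD-AML1 at both harvests. In ELF-153 the sums were 573 to 800 and 747 to 1143, and 454 to 784 and 1387 to 1758, where 2 rose and then 4. VWF, the endothelial and megakaryocytic von Willebrand factor, rose in UCSD-AML1 by 3.52 ± 0.26 (3.02e-07) and 4.63 ± 0.31 (2.73e-07), and in ELF-153 at 144 h (0.000322), while LUM was at 0 in every group but treated ELF-153 at 96 h. KDR was higher in UCSD-AML1 (6.72e-05 and 9.28e-05), COL1A1 higher there at 144 h (6.91e-05) and PDGFRB lower at 96 h (0.000162). In ELF-153 COL3A1 was higher (0.000133 and 3.9e-05), as were TEK at 96 h (0.0278) and PDGFRA at 144 h (2.38e-06). PDGFRA was at 0 in untreated cells of both lines at 144 h, so it passed the filter only through treated libraries. Counts of the marker lists were not repeated without such genes. The bearing of these lists on the members was not tested.

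Markers of myeloid leukaemia cells were called in both directions. The sum of the 11 genes was 8218 to 8713 scaled reads in untreated and 4959 to 5449 in treated UCSD-AML1 at 96 h, and 6230 to 7333 and 3505 to 3757 at 144 h, so the groups lay apart, lower with DAC. In ELF-153 it was 3744 to 4241 and 4295 to 4942 at 96 h and 3944 to 4195 and 3345 to 3863 at 144 h, higher with DAC at the first harvest and lower at the second. Of the 9 tested 2 rose and 3 fell in UCSD-AML1 at 96 h, against 20% and 20.1% of all genes. At 144 h 2 rose and 5 fell there, against 20.1% and 26.8%. In ELF-153 1 rose and 2 fell at 96 h, against 20.7% and 12.9%, and 2 and 2 at 144 h, against 20.8% and 18.2%. The ELF-153 counts and the UCSD-AML1 rises were near the background. CD33, a surface receptor of myeloid cells, fell in all 4 comparisons, by 1.06 ± 0.17 (adjusted p = 0.000315) and 1.57 ± 0.19 (3.14e-05) in UCSD-AML1 and by 1.15 ± 0.17 (0.000184) and 1.71 ± 0.19 (1.31e-05) in ELF-153. CD34, a marker of stem and progenitor cells, changed in ELF-153 by -0.85 ± 0.21 (0.00668) and -1.52 ± 0.21 (7.46e-05) and in UCSD-AML1 at 144 h by -1.02 ± 0.21 (0.00149). KIT, the stem cell factor receptor, changed in UCSD-AML1 by -2.32 ± 0.46 (0.0013) and -3.2 ± 0.55 (0.000609). MECOM, a transcription factor gene of blood stem cells, fell in UCSD-AML1 at 144 h by 1.52 ± 0.24 (0.000226) from 3699, 3493 and 3187 scaled reads, and rose in ELF-153 (1.92e-07) from 0.726, 0 and 0 to 12.8, 10.1 and 13.2. RUNX1, another blood transcription factor gene, rose in UCSD-AML1 at 96 h by 1.33 ± 0.23 (0.000487), and there CSF2RB, the shared chain of the GM-CSF receptor, rose at 144 h by 2.66 ± 0.39 (0.000161). PTPRC, the leukocyte antigen CD45, rose in ELF-153 at 96 h by 0.7 ± 0.19 (0.0137). Counts of these marker lists read against 20% to 20.8% of all genes that rose and 12.9% to 26.8% that fell. The part of the leukaemia-cell markers in the changes of the members was not tested.

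**Figure D4:**
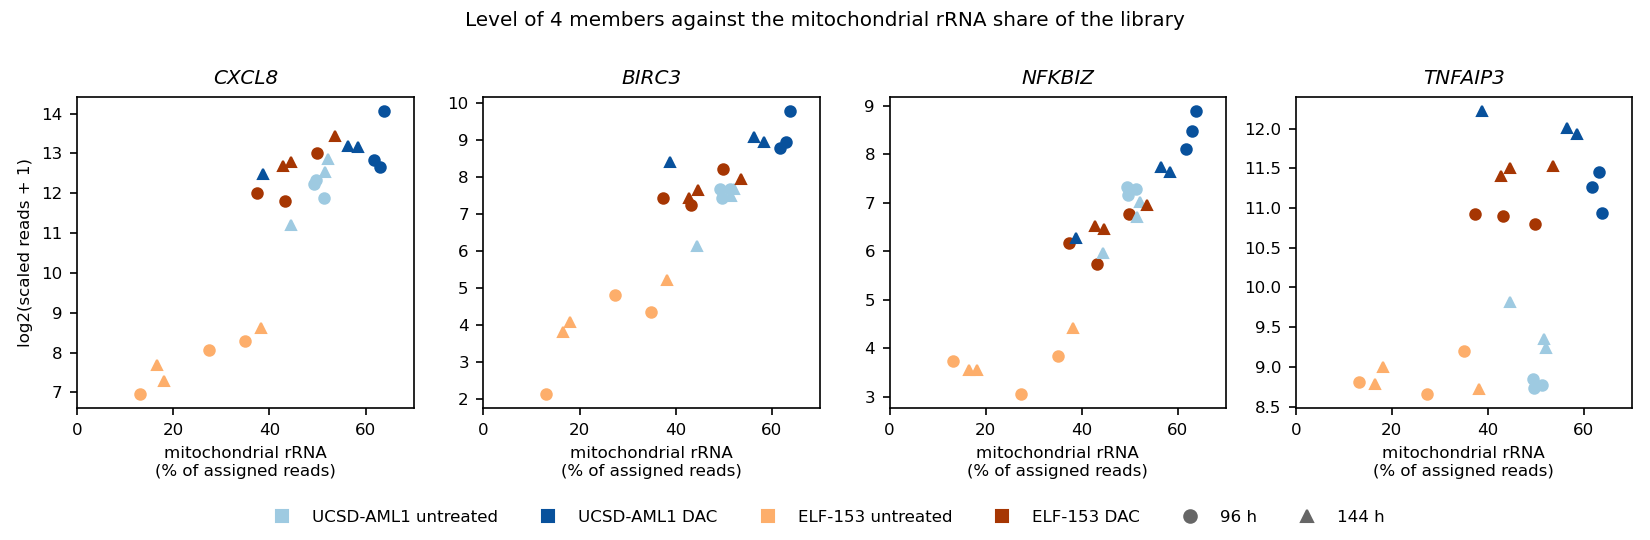
Level of CXCL8, BIRC3, NFKBIZ and TNFAIP3 as log2(scaled reads + 1) against the percentage of assigned reads from mitochondrial ribosomal RNA, 1 point per library (24 libraries). CXCL8, BIRC3 and NFKBIZ were each highest in the library with the largest share in 6 of 8 groups and TNFAIP3 in 2.

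The mitochondrial rRNA share was higher in treated than in untreated libraries without overlap in both lines at 96 h and in ELF-153 at 144 h. With the share as a covariate the called members numbered 20 and 22 in UCSD-AML1 and ELF-153 at 96 h and 24 and 24 at 144 h, against 18, 25, 22 and 26 without it. NFKBIZ in ELF-153 was then 2.45 at 96 h and 1.48 at 144 h, and BIRC3 2.02 at 144 h. The line difference of CXCL8 was 3.09 and 3.16. The number of all genes called in ELF-153 at 96 h fell from 5913 to 3476. The part of the share in these changes was not tested.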

How the data were processed

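Total RNA of UCSD-AML1 and ELF-153 was sequenced after ribosomal RNA depletion, with a stranded paired-end kit per the labels' protocols. Per the submitters' processing notes the build was hg19 and DESeq2, HTSeq, STAR, TopHat2 and FastQC were used; versions and roles are not given in the sources used here, nor whether counting used strand. The deposited values are signal: reads per transcript divided by 1 size factor per library, separately for each harvest, so no test was made between harvests. All values were whole multiples of that step within 0.01, which recovered the reads.

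Transcripts were summed to genes by GENCODE 29 names (181859 of 204940, with 97.8% of the value). SOD2 names 2 annotated genes, and the superoxide dismutase was used. In 10 of 35 members with reads, retained-intron or processed transcripts gave over 50% of the sum. Tests used limma 3.58.1 in R 4.3.3 (trend, robust) on the 12 libraries of a harvest, with group means, pseudocount 1, a minimum of 10 in 3 libraries and Benjamini-Hochberg over all genes. Unmatched transcripts were left out of the fit after a first pass had included them; member counts are identical with them. The members, lists, promoters and rule were chosen with earlier results of these data known. Every member is accounted for. Values in every library are given for a fixed set of 16, the 5 largest called changes of each DAC comparison, each member that fell, and the 5 smallest adjusted p of each difference between lines. Lists give counts and the 3 smallest adjusted p.

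Alternatives were edgeR 4.0.16 and DESeq2 1.42.0 on the recovered reads, TMM scaling, pseudocounts 0.5 and 8, other filters, 6 libraries of a line, a replicate block, the mitochondrial rRNA share as covariate, other transcript sums and leaving out libraries; removal of each library's GC trend (span 0.3) was added after the data had been seen. Same-numbered untreated and treated libraries deviated together in UCSD-AML1 at 144 h (correlations over genes 0.133, 0.123 and 0.264) and not in every pair elsewhere (-0.069, 0.006 and -0.049 in UCSD-AML1 and 0.301, 0.327 and -0.037 in ELF-153 at 96 h, and -0.241, -0.316 and 0.161 in ELF-153 at 144 h). In UCSD-AML1 at 144 h untreated replicate 2 with treated replicate 1 gave 0.14, and untreated 1 with treated 2 gave 0.09. The numbers are therefore not shown to mark pairs there either. Counting intervals are exact at 95% and the floor is 3 reads per group. The limma fit of DAC in ELF-153 was tested on simulated reads at each harvest. Tables and figures used Python 3.11.15, pandas 2.3.3, numpy 2.4.6, scipy 1.17.1 and matplotlib 3.10.9.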

Additional observations from a re-analysis of the deposited data

Results flagged for a closer look

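For 18 results the change with DAC differed between ELF-153 and UCSD-AML1 by the limma test of the difference itself, given here as the ELF-153 change minus the UCSD-AML1 change in log2. Of all genes 17.1% were called with a positive and 8.71% with a negative difference at 96 h, and 19.9% and 10.1% at 144 h. The member counts were not far from these shares. CXCL8 differed by 3.47 at 96 h and 4.36 at 144 h, REL by 1.82 and 2.27, PTGS2 by 4.64 and 3.41, EBI3 by 1.73 and 2.67, NFKBIZ by 1.45 and 2.16, NFKBIA by 0.76 and 1.03 and ICAM1 by 0.76 and 1.21. BIRC3 differed by 2.29 at 96 h, and TNFSF9 by 1.25, CD83 by 0.84 and ZC3H12A by -0.93 at 144 h. CXCL8, PTGS2 and REL at 96 h, and CXCL8, CD83, EBI3, ICAM1, NFKBIA, NFKBIZ, PTGS2, REL and TNFSF9 at 144 h, passed the threshold whichever library was left out.

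The others did not. At 96 h NFKBIA was lost without treated ELF-153 replicate 1 or 3 (0.71 and 0.78, adjusted p = 0.0604 and 0.0533), treated UCSD-AML1 replicate 1 (0.66, 0.076) or untreated UCSD-AML1 replicate 1 or 2 (0.73 and 0.71, 0.0733 and 0.0798). NFKBIZ was lost without treated ELF-153 replicate 2 (1.18, 0.057), untreated ELF-153 replicate 3 (1.2, 0.0514), treated UCSD-AML1 replicate 1 or 2 (1.44 and 1.25, 0.0529 and 0.0657) or untreated UCSD-AML1 replicate 2 or 3 (1.42 and 1.43, 0.0539 and 0.0506). EBI3 was lost without treated UCSD-AML1 replicate 1 (1.7, 0.051) or untreated UCSD-AML1 replicate 2 (1.68, 0.0514). BIRC3 was lost without treated ELF-153 replicate 1 or 2 (2.39 and 1.99, 0.0511 and 0.103), treated UCSD-AML1 replicate 1 or 2 (2.17 and 2.1, 0.0948 and 0.0965) or untreated UCSD-AML1 replicate 1, 2 or 3 (2.37, 2.26 and 2.25, 0.0703, 0.0761 and 0.0804). ICAM1 was lost without treated or untreated ELF-153 replicate 3 (0.68 and 0.76, 0.0815 and 0.0564), treated UCSD-AML1 replicate 1 or 3 (0.78 and 0.68, 0.0552 and 0.0607) or untreated UCSD-AML1 replicate 1, 2 or 3 (0.72, 0.79 and 0.79, 0.0779, 0.0604 and 0.0563). ZC3H12A at 144 h was lost without treated ELF-153 replicate 1, 2 or 3 (-0.92, -0.94 and -0.91, 0.0515, 0.0572 and 0.0554), untreated ELF-153 replicate 2 or 3 (-0.8 and -0.85, 0.0722 and 0.0708), treated UCSD-AML1 replicate 3 (-0.74, 0.0636) or untreated UCSD-AML1 replicate 1 or 2 (-0.92 and -0.89, 0.058 and 0.0619).

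With TMM scaling the adjusted p was 0.104 for NFKBIA, 0.0938 for ICAM1 and 0.0502 for BIRC3 at 96 h, and 0.0947 for CD83 and 0.0515 for ICAM1 at 144 h. With the GC trend removed REL was 0.63 (0.0515) and BIRC3 0.92 (0.245) at 96 h, and PTGS2 2.0 (0.0902), CD83 0.32 (0.33) and ZC3H12A -0.37 (0.138) at 144 h. With the mitochondrial rRNA share in the fit NFKBIZ was 0.93 (0.127) and ZC3H12A -0.41 (0.186) at 144 h. Without retained-intron and processed transcripts NFKBIZ was 0.83 (0.282) at 96 h and 1.52 (0.0628) at 144 h, and NFKBIA 0.7 (0.147) at 96 h. With a pseudocount of 8 EBI3 was 0.79 (0.0728) and NFKBIZ 0.93 (0.0682) at 96 h. With no filter on low values BIRC3 (2.29, 0.0884), ICAM1 (0.76, 0.0776) and NFKBIA (0.76, 0.0798) missed the threshold at 96 h. With edgeR ICAM1 (0.55, 0.121) and NFKBIA (0.55, 0.131) at 96 h and CD83 (0.5, 0.126), ICAM1 (0.85, 0.0633) and NFKBIA (0.69, 0.0507) at 144 h did so, and with DESeq2 ICAM1 (0.56, 0.11) and NFKBIA (0.56, 0.105) at 96 h. The cause of these shifts was not tested.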

How the results depend on the processing

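Of 152 called differences of members over the 8 comparisons, 110 passed the threshold in every alternative run and 129 whichever library was left out; 2739 values under alternatives kept direction and call, 184 kept only the direction and 1 reversed. The reversed value was TNIP1 in ELF-153 at 96 h, -0.52 without retained-intron and processed transcripts. Called members ranged over left-out libraries from 15 to 16 and 21 to 26 (UCSD-AML1 and ELF-153, 96 h), 18 to 21 and 24 to 26 (144 h), and for the line difference from 3 to 9 at 96 h; TMM scaling and no filter gave 5 and 5 there. Over all genes the mitochondrial covariate gave 3476 calls in ELF-153 at 96 h, 4492 between untreated lines at 96 h, 2497 for the line difference at 144 h (2792 to 6934 over left-out libraries) and 5747 between untreated lines at 144 h. The cause was not tested.

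With the replicate block 21 and 25 members were called at 96 h and 21 and 26 at 144 h (UCSD-AML1 and ELF-153), 9 and 11 for the line difference and 19 and 25 between untreated lines. In UCSD-AML1 at 144 h the block ended the call of EBI3 (0.79) and changed no other call of a member. Elsewhere it ended those of NFKB1 in ELF-153 at 96 h (1.05) and CXCL16 in ELF-153 at 144 h (1.93). Genes with 1 to 3 reads in a group are limited by counting.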
